A study of Homo sapiens with 12 samples.

Results

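The measurement described here is the polysome loading of an mRNA, and how it differed between cells that overexpressed RBMX and control cells. Loading was taken per culture as log2(polysomal FPKM + 1) minus log2(total FPKM + 1). A value of 0 thus means an equal FPKM in both libraries. For a gene well above the added 1, -1 means a polysomal FPKM about 0.5 times the total one. FPKM is a level counted in sequenced fragments and normalised for transcript length and sequencing depth. Loading is therefore relative to the other genes of the same libraries, and a shift shared by all genes cannot be seen. The genes were chosen by level: 13182 of the 25268 gene symbols listed reached an FPKM of 1 on average across all 12 libraries and carried no small RNA symbol. Just inside this limit lay AIM1 (mean FPKM 1.00034), and just outside it LTK (0.999557) and ANKRD7 (0.998265). A gene that is induced in one group can pass this limit through that group alone.

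All cells were HEK293, an established human embryonic kidney cell line, labelled wild type in the control libraries. Both groups were transiently transfected by lipofection with 2 µg of plasmid. The RBMX cultures received pCMV6-HIS-HA-RBMX, in which a viral promoter drives a tagged RBMX, and the control cultures received the mock empty vector. There were 3 cultures per group. Cells near confluence were treated with cycloheximide, which freezes ribosomes on the mRNA, and their lysate was separated on a sucrose gradient. Total RNA was a pool of 20% of each gradient fraction and polysomal RNA came from the heavy fractions. Total RNA is therefore cytoplasmic, as nuclei had been spun out of the lysate.

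An mRNA that is translated efficiently carries several ribosomes and sediments with the polysomes, while a repressed mRNA stays in light fractions, with single ribosomes or none. The best known mRNAs under this kind of control are the TOP mRNAs, which encode ribosomal proteins and translation factors and begin with a cytosine followed by an uninterrupted run of pyrimidines. The ferritin mRNAs are another such class, held off ribosomes by proteins that bind an iron-responsive element in their leader. RBMX, also called hnRNP G, is an RNA-binding protein known for its part in alternative splicing. The study describes it as present in both nucleus and cytoplasm. In a preliminary experiment it saw the cytoplasmic protein mostly with polysomes.

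The first bases of several mRNAs discussed below show this TOP feature. Each line gives 6 bases before the annotated start and 18 bases from it, from RefSeq on GRCh38.p14, and capitals mark the run of C and T that begins with a C at the start itself. The first 5 are factors with the feature, RPSA and RPL36A are ribosomal proteins, EEF1G is a factor usually counted among TOP mRNAs whose annotated start carries no such run, and RBMX is shown as the overexpressed gene.
EEF1A1 (chr6:73521015-73521038, minus strand): aacgttCTTTTTCgcaacgggttt
EIF3F (chr11:7987331-7987354, plus strand): cgcctcCTTCTTTCTCgacaagat
EEF2 (chr19:3985446-3985469, minus strand): agcgttCTCTTCCgccgtcgtcgc
TPT1 (chr13:45341166-45341189, minus strand): gtcggcCTTTTCCgcccgctcccc
EIF4B (chr12:53006450-53006473, plus strand): ccgggtCTTTTgcgttctctttcc
RPSA (chr3:39406714-39406737, plus strand): gcctgtCTTTTCCgtgctacctgc
RPL36A (chrX:101391005-101391028, plus strand): cggtttCTTTCTTTCCgcgccgat
EEF1G (chr11:62573874-62573897, minus strand): cggcttactttgcggcagcgccga
RBMX (chrX:136880708-136880731, minus strand): ttcgccCTCgttgcgcagtagtgc

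A run of at least 5 bases that starts in this way, read on the transcribed strand only, stood at 1429 of all 35116 annotated starts (4.07%) and at 785 of the 10568 genes compared that had a start sequence (7.43%). It was found in 46 of 62 cytosolic ribosomal proteins and in 12 of 14 other TOP mRNAs with a start sequence.

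The libraries carried the markers of the cell line. PAX2, LHX1, NEFM, NEFL and VIM had an FPKM of at least 2.49 in each library, while the markers of leukocytes, hepatocytes, muscle, fibroblasts and endothelium reached at most 0.226. The median loading of a culture lay between -0.028 and 0.033. The cultures differed more in spread. The distance between the quartiles of loading was 0.431 in RBMX culture 2 and 0.289 in control culture 3, against 0.185 to 0.210 in the other 4. Loading followed the GC content of the transcript in control culture 3 (Spearman 0.683 across 12868 genes) and RBMX culture 2 (0.424), against at most 0.251 in the other cultures. With transcript length the correlation was 0.391, 0.147 and -0.075 in control cultures 1 to 3 and 0.302, 0.397 and 0.337 in RBMX cultures 1 to 3. These are descriptions across genes, which are not independent. Where the median of a gene list rests on either culture, it is given below with and without it.

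**Figure D1:**
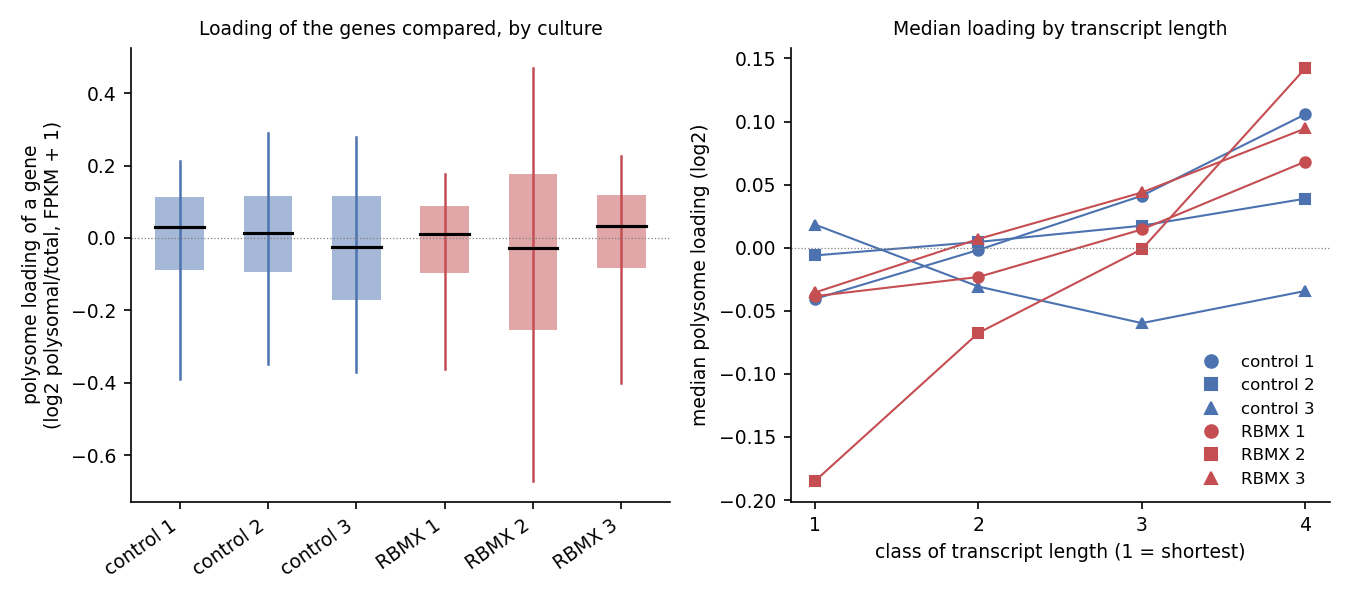
Left, polysome loading (log2) of the 13182 genes in each culture, with a line from the 5th to the 95th percentile, a box between the quartiles and the median in black. Right, the median loading of each of 4 classes of transcript length of equal size, with control cultures in blue and RBMX cultures in red. RBMX culture 2 had the widest spread (0.431 between quartiles) and the steepest slope, from -0.18 in the shortest class to 0.14 in the longest.

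No gene passed the threshold for a difference in loading between RBMX and control cultures (limma, Benjamini-Hochberg adjusted p up to 0.05, 0 of 13182, 0%). The smallest unadjusted limma p was 0.000378 and the smallest adjusted p 1.00. At an unadjusted p under 0.05 there were 294 genes (2.23%), of which 46 were higher (0.349%) and 248 lower (1.88%) in RBMX cultures. The 3 RBMX cultures did not overlap the 3 control cultures for 885 genes (6.71%), with 355 higher (2.69%) and 530 lower (4.02%). With 3 cultures a group, the smallest two-sided exact permutation p for a single gene is 0.1. Non-overlap is thus reached by 10% of random arrangements of the cultures, and the observed share of 6.71% was below that. The share with an unadjusted p under 0.05 (2.23%) was likewise below what that threshold gives without any difference.

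The size of the differences was small for most genes. The change, defined as mean loading in RBMX minus mean loading in control cultures, had a median of -0.0018, a 1st percentile of -0.38 and a 99th percentile of 0.25. The median standard error was 0.11. The 95% confidence interval of the change lay inside ±0.5 for 12101 genes (91.8%) and inside ±1, a factor of 2 either way, for 13064 (99.1%). A change of at least 0.5 in size was seen in 110 genes and of at least 1 in 37. The plot of loading in control against RBMX cultures shows most genes on the diagonal.

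**Figure D2:**
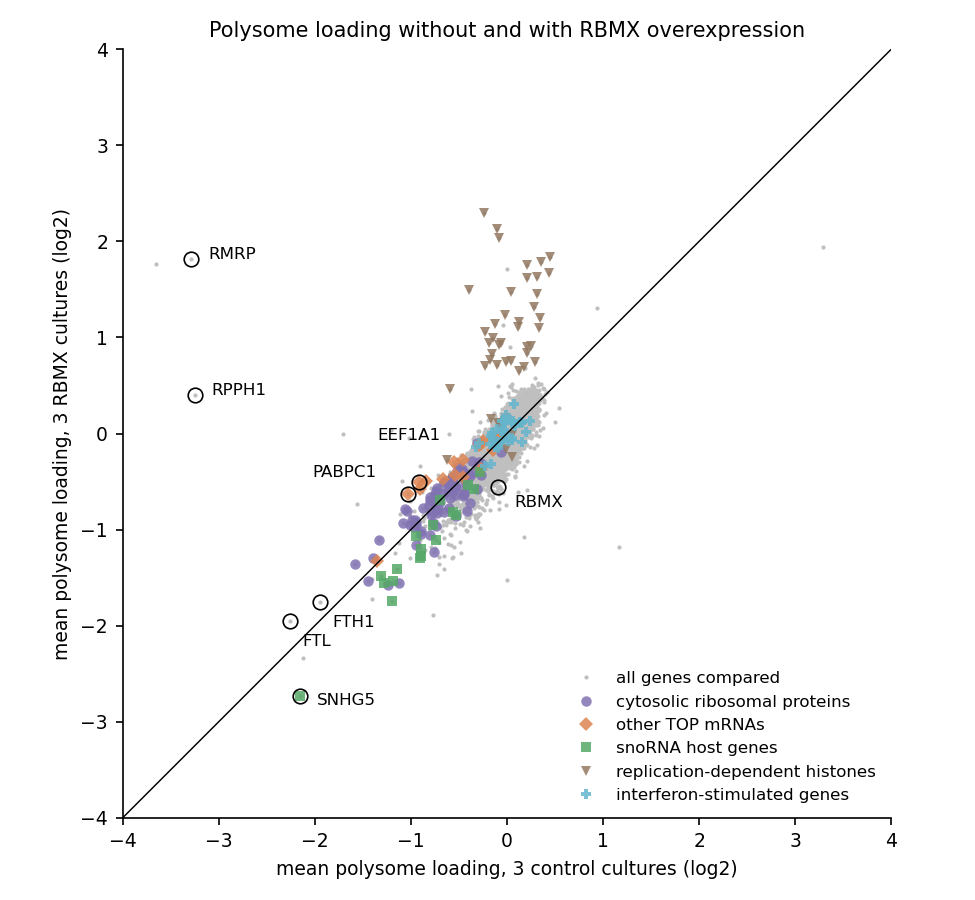
Mean polysome loading (log2) of each gene in the 3 control cultures against the 3 RBMX cultures, with the diagonal of equal loading and 3 genes beyond the axes not drawn. Most genes lie on the diagonal, RMRP, RPPH1 and 42 of the 45 replication-dependent histones above it (25 of 45 without RBMX culture 2), and RBMX and SNHG5 below it.

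The overexpressed mRNA itself had lower loading values in the RBMX cultures, without passing the adjusted threshold. RBMX had total FPKM of 147, 145 and 108 in control cultures 1 to 3 and of 1731, 2073 and 1460 in RBMX cultures 1 to 3, so that the labels fit the gene. Its polysomal FPKM was 146, 148 and 87.4 in control and 1167, 1328 and 1072 in RBMX cultures. The loading of RBMX was -0.01, 0.03 and -0.30 in control cultures and -0.57, -0.64 and -0.45 in RBMX cultures. The groups did not overlap, and the nearest pair was control culture 3 and RBMX culture 3. The change was -0.46 (standard error 0.13, 95% interval -0.75 to -0.16), with a limma adjusted p of 1.00 like that of all genes. The level is summed over the gene, so that plasmid and endogenous transcripts cannot be told apart here, and neither can more transfected cells and more RNA per cell. The change of RBMX kept its sign under every alternative run, and lay between -0.56 and -0.40 except with quantile normalisation, where it was -0.054.

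RBMXL1, an intronless paralog, gave loading of 0.00, 0.07 and -0.37 in control cultures and of -0.70, -0.72 and -0.39 in RBMX cultures. Its change was -0.50 (standard error 0.14). RBMXL1 is nearly identical to RBMX in sequence, so its fragments are uncertain and its value is not independent of RBMX.

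The genes with the smallest unadjusted p among those without overlap were mostly of low level on the lower side, and included factors of translation on the higher side. LOC100506100 gave the smallest p of all. Its loading was -0.35, -0.40 and -0.19 in control and -0.81, -1.03 and -0.77 in RBMX cultures, with a change of -0.56 (standard error 0.10). Antisense transcripts were among them, with a change of -0.58 for TMEM161B-AS1, -0.49 for IDH1-AS1 and -0.39 for DLGAP1-AS1. Without strand in the counting, antisense RNA and its partner cannot be told apart, and whether strand was used is not given in the sources used here. S100A4, a calcium-binding protein, had loading of -0.13, 0.06 and 0.04 in control and -0.39, -0.70 and -0.34 in RBMX cultures, a change of -0.46. PMF1-BGLAP, a readthrough transcript that shares sequence with its neighbours, had a change of -0.53. H3F3A, which encodes the histone variant H3.3 and has many processed copies in the genome, had one of -1.25 at an FPKM of at most 9.26, and its level is uncertain for that reason. KRTDAP was at a total FPKM of 0.372 to 0.827 in control cultures and had a change of -0.73, and LOC100996437, at a mean FPKM near the limit, one of -0.37.

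On the higher side RAB39A, a small GTPase of vesicle traffic, had loading of -0.33, -0.33 and -0.23 in control and 0.09, -0.04 and 0.03 in RBMX cultures. Its change was 0.32 (standard error 0.09), at an FPKM of at most 3.40. ZNF93, a zinc finger protein, had loading of -0.22, -0.30 and -0.50 in control and 0.02, -0.07 and -0.05 in RBMX cultures, a change of 0.31. C17orf97 had a change of 0.27 and LOC103021295 one of 0.84. The other 6 of the 10 on this side were RMRP, RPPH1, HIST1H4A, PABPC1, EEF1A1 and EIF3L, which are described with their groups.

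TOP mRNAs other than ribosomal proteins were mostly higher in RBMX cultures, although no member passed the adjusted threshold. Of 20 compared, 17 were higher and 3 lower, and the RBMX cultures lay wholly above the control cultures for 9 (45%, against 2.69% of all genes) and wholly below them for none. The median change was 0.17, against -0.0018 for all genes. At an unadjusted limma p under 0.05, 5 members were higher and 0 lower, against 0.349% and 1.88% of all genes. The medians over the list overlapped, at -0.41, -0.36 and -0.43 in control cultures and -0.20, -0.42 and -0.22 in RBMX cultures, with RBMX culture 2 below control cultures 1 and 2. The list was written with earlier results of these data in view, so its count is a description.

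EEF1A1, the factor that brings aminoacyl-tRNA to the ribosome, had the largest change of the list. Its loading was -0.83, -0.83 and -1.07 in control cultures and -0.28, -0.68 and -0.54 in RBMX cultures. All RBMX cultures lay above all control cultures, and the change was 0.41 (standard error 0.13, 95% interval 0.12 to 0.71). PABPC1, the cytoplasmic poly(A)-binding protein, had loading of -0.92, -1.04 and -1.13 in control and -0.39, -0.71 and -0.78 in RBMX cultures. Its change was 0.40 (standard error 0.12, 95% interval 0.12 to 0.68). EIF3L, a subunit of the initiation factor eIF3, had -0.88, -0.79 and -0.87 in control and -0.31, -0.61 and -0.56 in RBMX cultures, a change of 0.35. EEF1G, a subunit of the elongation factor 1 complex, had -1.02, -0.91 and -0.80 in control and -0.37, -0.65 and -0.72 in RBMX cultures, a change of 0.33. EIF3F, another eIF3 subunit, had -0.56, -0.60 and -0.50 in control and -0.21, -0.38 and -0.31 in RBMX cultures, a change of 0.25. In each of these 5 genes RBMX culture 1 was the most loaded culture.

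The other 4 members without overlap had smaller changes. These were GNB2L1 (0.18), which encodes the ribosomal scaffold protein RACK1, VIM (0.18), the intermediate filament vimentin, EEF2 (0.18), the translocation factor, and EIF4B (0.17), a cofactor of the initiation helicase. The 3 members lower in RBMX cultures were NACA (-0.10), BTF3 (-0.02) and EEF1B2 (-0.001), and their cultures overlapped. TPT1, whose start is shown above and which is among the least loaded of the list, had -1.47, -1.30 and -1.29 in control and -1.03, -1.66 and -1.30 in RBMX cultures, a change of 0.02. YBX1, a cold shock domain protein that binds mRNA and was not put in the list, had -1.07, -1.01 and -0.94 in control and -0.61, -0.59 and -0.90 in RBMX cultures, without overlap and with a change of 0.30 (standard error 0.12).

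For the leading genes the difference lay mostly in total RNA. On the log2 scale EEF1A1 differed between RBMX and control libraries by -0.32 in total and 0.09 in polysomal RNA, PABPC1 by -0.35 and 0.06, and EIF3L by -0.25 and 0.10. For EEF1A1 total FPKM was 290, 285 and 247 in control and 198, 215 and 246 in RBMX cultures, while polysomal FPKM was 162, 160 and 117 in control and 162, 134 and 168 in RBMX cultures. The groups did not overlap in total RNA, by a narrow margin, and overlapped in polysomal RNA. For PABPC1 total FPKM was 174, 181 and 177 in control and 125, 139 and 155 in RBMX cultures, and polysomal FPKM was 79.9 to 91.4 in control and 84.8 at the lowest in RBMX cultures. Its groups too did not overlap in total RNA and overlapped in polysomal RNA. For EIF3L total FPKM was 268, 268 and 235 in control and 196, 208 and 244 in RBMX cultures, and these groups overlapped. The difference in total RNA did not pass the adjusted threshold for EEF1A1, PABPC1 or EIF3L (limma adjusted p 0.16 to 0.26). Over the list the median log2 difference between RBMX and control libraries was -0.086 for total and 0.069 for polysomal RNA.

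**Figure D3:**
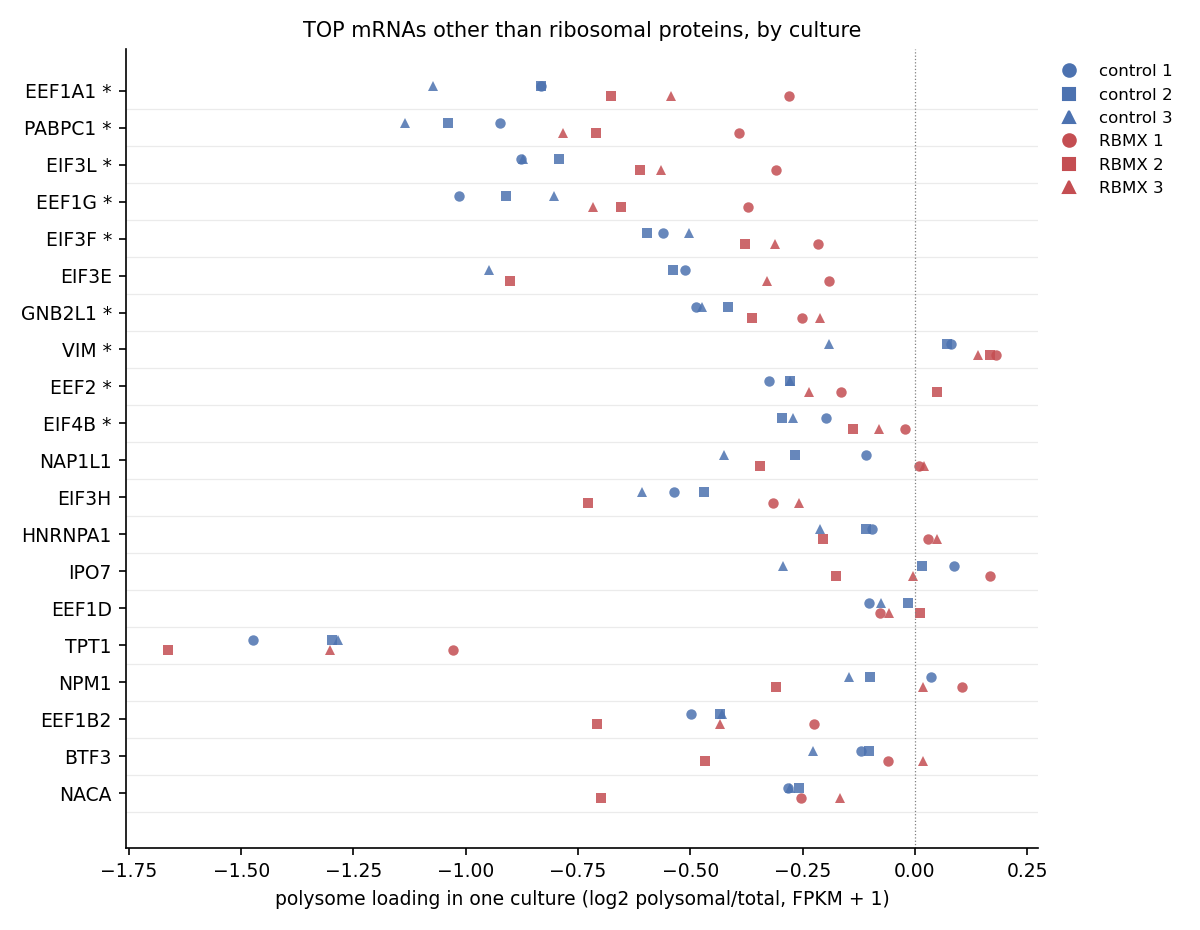
Polysome loading (log2) of the 20 TOP mRNAs other than ribosomal proteins in each of the 6 cultures, with control in blue, RBMX in red and an asterisk on the 9 genes whose groups did not overlap. In EEF1A1, PABPC1, EIF3L, EEF1G and EIF3F all RBMX cultures lie to the right of all control cultures, while in NACA, BTF3 and EEF1B2 RBMX culture 2 lies to the left of all others.

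The median of the TOP list depended on single cultures in size but kept its sign. It was 0.076 without control culture 3 and 0.082 without RBMX culture 1, and in each case the RBMX cultures lay above the control cultures for 9 members, against 5.39% and 7.94% of all genes. With control culture 3 and RBMX culture 2 both left out it was 0.20, with 19 of 20 higher and 16 of 20 above all control cultures, against 13.3% of all genes. With loading corrected for transcript length and GC content it was 0.14, with 10 of 20 above all control cultures, against 4.62% of the genes.

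Cytosolic ribosomal proteins, the larger class of TOP mRNAs, did not share this. Of 78 compared, 35 were higher and 43 lower, none lay wholly above the control cultures and 2 wholly below (2.56%, against 4.02% of all genes), with a median change of -0.013. Their median loading was low in all cultures, at -0.77, -0.68 and -0.52 in control and -0.41, -0.97 and -0.62 in RBMX cultures, and RBMX culture 2 was the lowest. The sign of the list was not stable. The median turned to 0.041 without control culture 3, to 0.020 with quantile normalisation and to 0.082 with length and GC content corrected. Without RBMX culture 2 the median change was 0.14, with 70 of 78 higher and 27 above all control cultures against 8.91% of all genes. Without both it and control culture 3 the median change was 0.21, with 74 of 78 higher. In that setting 49 lay above all control cultures, against 13.3% of all genes. Without RBMX culture 1 the median change was -0.12. RPLP0, the stalk protein of the large subunit, had the highest change, from -1.14, -1.16 and -0.90 to -0.65, -0.90 and -0.80 (change 0.28, standard error 0.12). The lowest were RPL41, one of the shortest proteins known, with -1.05, -0.87 and -0.35 in control and -1.06, -1.41 and -1.24 in RBMX cultures (change -0.48, standard error 0.18), and RPS27 (change -0.43, at an FPKM of at most 13.1). RPL36A, shown above, had a change of -0.39 with RBMX cultures wholly below the control cultures. Ribosomal proteins have many processed pseudogenes, so their levels are uncertain.

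The start sequence by itself went with no shift in median loading over all cultures. A gene counted as holding the run if any of its annotated starts did. The 785 genes with the run had a median change of -0.0012 and the 9783 without it one of 0.00025. The RBMX cultures lay wholly above the control cultures for 2.80% of the former and 2.71% of the latter. Of the 785 genes 727 were outside the ribosomal protein and other TOP lists, with a median loading of -0.008 in control cultures. The group therefore says little about TOP mRNAs, and it was not compared again with cultures left out.

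Translation factors outside the TOP list were spread around 0, with 19 of 39 higher, 20 lower, none without overlap and a median change of -0.006, which turned to 0.055 with quantile normalisation and to 0.047 without RBMX culture 2. EIF3C (0.19) and GSPT1 (0.19), a release factor, had the highest changes, and EIF4E (-0.21), which binds the cap, and EIF3G (-0.19) the lowest. Of the aminoacyl-tRNA synthetases, which charge tRNAs, 16 of 20 were higher, but the median change was 0.03 and turned to -0.016 without control culture 3. QARS, for glutamine, had -0.44, -0.28 and -0.34 in control and -0.15, -0.19 and -0.24 in RBMX cultures, a change of 0.16, and IARS one of 0.11. MARS (-0.05) and FARSB (-0.02) were the lowest. Heat shock chaperones were higher in 16 of 24 with a median of 0.04, which turned to -0.042 without control culture 3. HSPA4 (0.14) and TCP1 (0.10) stood highest and HSPE1 (-0.27) and HSPB1 (-0.15) lowest.

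The ferritin mRNAs were the most weakly loaded of the textbook genes in all cultures. FTL, the ferritin light chain, had loading of -2.49, -2.35 and -1.94 in control and -1.67, -2.10 and -2.10 in RBMX cultures, and FTH1, the heavy chain, -2.02, -2.14 and -1.68 in control and -1.35, -1.73 and -2.17 in RBMX cultures. The groups overlapped for both, and the changes were 0.30 (standard error 0.17) and 0.19 (standard error 0.20). Of 9 mRNAs with an iron-responsive element 8 were higher, with a median change of 0.19. RBMX cultures lay wholly above the control cultures for 2 of them, 22.2% of the list against 2.69% of all genes. One was EPAS1 (0.22), a hypoxia transcription factor, which was at -0.04, -0.14 and -0.22 in control and 0.04, 0.21 and 0.02 in RBMX cultures. TFRC (0.05), the transferrin receptor, and SLC11A2 (-0.06), an iron importer, carry the element in the trailer rather than the leader and lay lowest. The list median was 0.09 without RBMX culture 1.

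The stress genes showed no common shift. Of 23 genes of the integrated stress response 11 were higher and 12 lower, with a median change of -0.010, which turned to 0.034 with quantile normalisation. ATF4, its transcription factor, whose translation is set by upstream reading frames, had -0.40, -0.31 and -0.01 in control and -0.46, -0.65 and -0.40 in RBMX cultures, a change of -0.27 (standard error 0.14). DDIT3, its target CHOP, had -0.41, -0.49 and -0.16 in control and -0.63, -0.89 and -0.59 in RBMX cultures, a change of -0.35 (standard error 0.12). RBMX cultures lay wholly below the control cultures for these 2 of 23 (8.70%, against 4.02% of all genes). For ATF4 the margin was narrow, with -0.397 in control culture 1 against -0.403 in RBMX culture 3. With 1 culture left out the change ran from -0.34 to -0.15 for ATF4 and from -0.42 to -0.25 for DDIT3. EIF2AK2, the kinase PKR, which is also an interferon target, stood highest with 0.22, and CEBPB followed with 0.20. Of the 21 ER chaperones and unfolded protein genes 14 were lower, with no gene without overlap and a median of -0.024. The direction turned without control culture 2, when 17 of 21 were higher with a median of 0.045, and with quantile normalisation, when 14 were higher with a median of 0.018. SEL1L (0.10) and EDEM1 (0.09) were the highest, and HSP90B1 (-0.23) and MANF (-0.19) the lowest. The enzymes of polyamine synthesis ODC1 and AMD1, which are controlled by translation in many cells, had changes of -0.05 and 0.004.

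The study had asked whether RBMX acts on homeotic mRNAs, and its panel of developmental regulators was therefore looked at next. Of the 44 genes listed 36 were compared, and 11 were higher and 25 lower in RBMX cultures (69.4%, against 50.8% of all genes). The median change was -0.048. RBMX cultures lay wholly below control cultures for 3 genes (8.33%, against 4.02% of all genes) and wholly above for none. The medians over the list were 0.011, -0.031 and 0.024 in control cultures and -0.081, -0.048 and -0.050 in RBMX cultures. The shift depended on control culture 3, without which the median was -0.0094 with 17 of 36 higher, and was -0.0049 after correction for length and GC content.

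HOXC9 had the lowest change of the panel, with loading of 0.14, -0.03 and 0.04 in control and -0.14, -0.36 and -0.26 in RBMX cultures (change -0.30, standard error 0.09). HOXB7 had a change of -0.28 with overlapping cultures, and NKX2-1 and HOXC6, the other genes without overlap, had -0.20 and -0.19. POU2F1 (0.25) stood highest. HOXC10, whose level was lower by 0.38 in both total and polysomal RNA of RBMX cultures on the log2 scale, had overlapping loading values, with -0.26, -0.11 and -0.01 in control and -0.11, -0.20 and -0.09 in RBMX cultures. Its change was -0.01 with a 95% interval of -0.22 to 0.20. FYN and HNRNPM, which the study used as controls for RNA immunoprecipitation, had changes of -0.002 (95% interval -0.19 to 0.19) and 0.01 (95% interval -0.22 to 0.25).

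The genes of hnRNP and SR proteins, partners of RBMX in splicing, were spread around 0. Of 39 compared 22 were higher and 17 lower, none was without overlap, and the median was 0.014. KHDRBS1 (0.14) and PTBP1 (0.12) had the highest changes and SRSF7 (-0.14) and SRSF5 (-0.11) the lowest. The median turned to -0.048 without control culture 3, in which total FPKM of HNRNPM and KHDRBS1 was 75.1 and 47.0, against 205 to 238 and 95.3 to 113 in the other cultures.

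Interferon-stimulated genes, which encode antiviral proteins, were higher in RBMX cultures in both fractions by similar amounts. Over 38 genes the median difference between RBMX and control libraries was 2.17 on the log2 scale for total and 2.25 for polysomal RNA, and the median change of loading was 0.010. RBMX culture 3 stood far below the other RBMX cultures in level, with total FPKM of 27.4, 27.9 and 4.22 in RBMX cultures 1 to 3 for MX2 and of 1325, 1392 and 351 for IFITM1, against at most 1.74 and 160 in control cultures. For MX2, OAS3, IFITM1 and IFI27 the difference passed the adjusted threshold in neither fraction. Their limma adjusted p was 0.14 to 0.15 in total and 0.37 in polysomal RNA. The changes of loading ran from -0.24 to 0.23, with 20 genes higher and 18 lower. MX2, an antiviral GTPase, had loading of 0.09, -0.07 and -0.06 in control and 0.17, 0.25 and 0.15 in RBMX cultures, and was the 1 gene wholly above. OAS3 (0.23), which makes the activator of RNase L, stood highest, and IFI27 (-0.24) and IFITM1 (-0.18) lowest, although IFITM1 turned to 0.28 with quantile normalisation, under which the median of the list was 0.10. ISG20 (-0.09) and IRF9 (-0.15) were wholly below. These are 2.63% above and 5.26% below, against 2.69% and 4.02% of all genes. Without control culture 3 and RBMX culture 2 the median change of the list was 0.082, with 26 of 38 higher. In that setting 15 lay above all control cultures, against 13.3% of all genes, and 4 below, against 16.0%. With length and GC content corrected the median change was 0.083.

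The loading of the interferon mRNAs themselves was limited by their low level in control cultures. IFNL3, a type III interferon, passed the level limit through the RBMX cultures alone. It had loading of 0.10, 0.06 and 0.03 in control and -0.24, -0.51 and -0.20 in RBMX cultures, a change of -0.38 (standard error 0.10). Its total FPKM was 0.414, 0.353 and 0.306 in control and 8.11, 9.40 and 1.76 in RBMX cultures, so that the pseudocount sets the control loading near 0. IFNL3 is nearly identical to IFNL2, and their values are uncertain. IFNB1, IFNL1 and IFNL2 were added after their values were seen, and their changes were -0.71, -0.18 and -0.37. IFNB1, the type I interferon beta, had -0.39, 0.11 and 0.04 in control and -0.71, -1.24 and -0.42 in RBMX cultures, with control culture 1 and RBMX culture 3 the nearest pair. The cultures overlapped for IFNL1 and did not overlap for IFNB1 and IFNL2, but total FPKM in control cultures was at most 1.22 for IFNB1 and 0.332 for IFNL2.

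**Figure D4:**
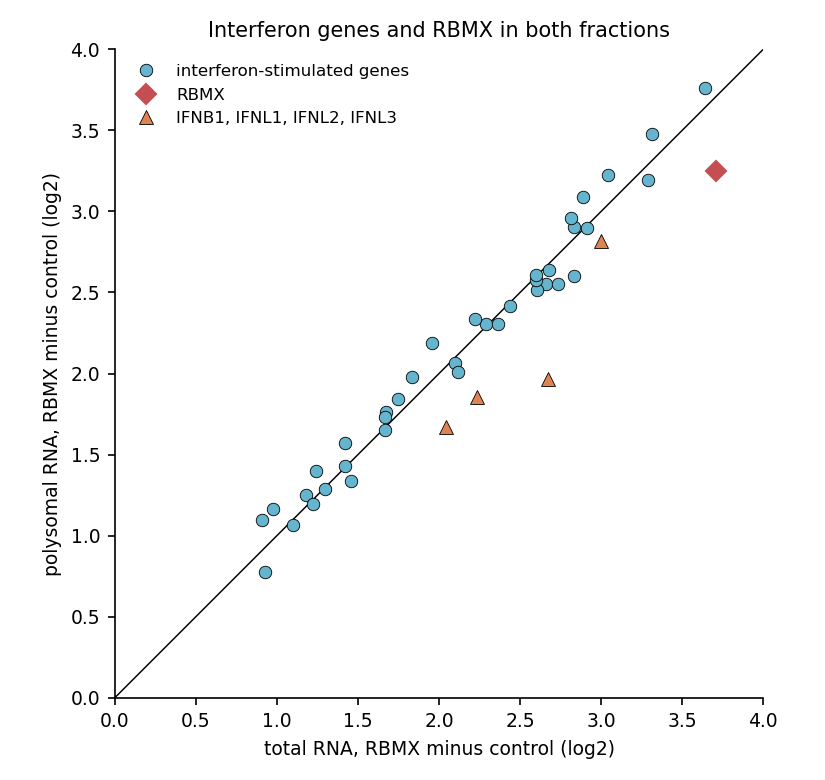
Difference between RBMX and control libraries (log2) in total RNA against polysomal RNA for the 38 interferon-stimulated genes, 4 interferon genes and RBMX, with the diagonal of equal change. The interferon-stimulated genes lie along the diagonal (median 2.17 and 2.25), and RBMX and the interferons below it.

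Among RNAs without a poly(A) tail, 2 had wide changes that came with lower levels in total RNA and, in 1 library, a high polysomal level. RMRP, the RNA of the ribonuclease MRP, had loading of -2.19, -4.50 and -3.16 in control and 0.88, 4.82 and -0.26 in RBMX cultures. The groups did not overlap, and the change was 5.10 (standard error 1.10), or 3.59 without RBMX culture 2. Its total FPKM was 126, 142 and 259 in control and 6.93, 7.57 and 12.2 in RBMX cultures, and its polysomal FPKM 26.8, 5.34 and 28.1 in control and 13.6, 241 and 10.1 in RBMX cultures. The RBMX minus control difference was -4.12 in total RNA, where the groups did not overlap, and 0.97 in polysomal RNA on the log2 scale. The difference in total RNA passed the adjusted threshold (limma adjusted p 0.0062), and that in polysomal RNA did not (limma adjusted p 0.73). RPPH1, the RNA of ribonuclease P, had a change of 3.65 (standard error 1.11), or 2.16 without RBMX culture 2. These RNAs are not translated, and RNA in the heavy fractions can be held there by complexes other than polysomes. VTRNA1-1, a vault RNA, was listed at 0 in 10 libraries and its value is not interpreted. The kit used selects poly(A) RNA in its usual form, and how these RNAs entered the libraries was not tested.

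Replication-dependent histones, whose mRNAs end in a stem-loop in place of a poly(A) tail, were higher in 42 of 45 compared, with a median change of 0.996. The size rested on RBMX culture 2, whose median loading over the list was 2.73, against -0.054 and 0.20 in the other RBMX cultures and -0.34 to 0.37 in control cultures. Without it the median was 0.081, with 25 of 45 higher. HIST1H4A had a polysomal FPKM of 38.9 in RBMX culture 2 and of 1.45 to 8.08 elsewhere, and a change of 2.53, or 1.24 without that culture. HIST1H1E had a change of 2.23, and HIST3H2A (-0.15) and HIST2H2BA (-0.30) were the lowest. Histone genes are similar in sequence, so their levels are uncertain. The nuclear noncoding RNA MALAT1 had a polysomal FPKM of 64.2 in the same library and of 8.64 to 27.2 elsewhere, with a change of 1.18, or 0.36 without it.

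Among 7 nuclear long noncoding RNAs 4 were higher and 3 lower, and the median change was 0.047, which turned to -0.068 without control culture 1 and to -0.020 with length and GC content corrected. After MALAT1, LINC00657 (0.18), also called NORAD, was highest, and JPX (-0.24) and OIP5-AS1 (-0.07) were lowest. JPX and OIP5-AS1 turned to 0.15 and 0.25 without control culture 3 and RBMX culture 2.

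Host genes of small nucleolar RNAs carry these RNAs in their introns, and 5 of the 15 with a start sequence held the TOP run. They were lower in 17 of 18, with a median change of -0.27. The cultures overlapped for all but SNHG17 (-0.24), 5.56% of the list against 4.02% of all genes. SNHG5 had -2.67, -2.32 and -1.47 in control and -2.07, -3.61 and -2.52 in RBMX cultures, a change of -0.58, and ZFAS1 one of -0.55. TAF1D (0.01) and SNHG7 (-0.12) had the highest. Control culture 3 was the most and RBMX culture 2 the least loaded, and with both left out the median was 0.055 and SNHG5 had a change of 0.20. How fragments of the snoRNAs themselves were counted was not tested.

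Nuclear-encoded mitochondrial mRNAs were lower as groups, and here too the size rested on RBMX culture 2. Of 76 oxidative phosphorylation genes 71 were lower (93.4%, against 50.8% of all genes), with a median change of -0.16, and of 79 mitochondrial ribosomal proteins 71 were lower, with a median of -0.10. RBMX cultures lay wholly below control cultures for 4 of the former (5.26%) and 3 of the latter (3.80%), against 4.02% of all genes. UQCRH, a subunit of complex III, had -0.55, -0.44 and -0.01 in control and -0.73, -1.15 and -0.67 in RBMX cultures, a change of -0.51. ATP5E and ATP5I, small subunits of ATP synthase, had changes of -0.57 each, with overlapping cultures, and ATP5A1 (0.18) and SDHA (0.11) had the highest. MRPL13 (-0.38) and MRPS33 (-0.32) were the lowest mitochondrial ribosomal proteins and MRPL19 (0.14) and MRPS30 (0.08) the highest. The median loading in RBMX culture 2 was -0.40 for the oxidative phosphorylation genes and -0.34 for the mitochondrial ribosomal proteins, against -0.024 to 0.0998 and -0.012 to 0.017 in the other cultures. Without it the medians of the change were -0.050 and 0.0021, and with length and GC content corrected they were -0.058 and -0.003. Without both RBMX culture 2 and control culture 3 the oxidative phosphorylation median turned to 0.010, with 41 of 76 higher, and that of the mitochondrial ribosomal proteins to 0.0024.

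**Figure D5:**
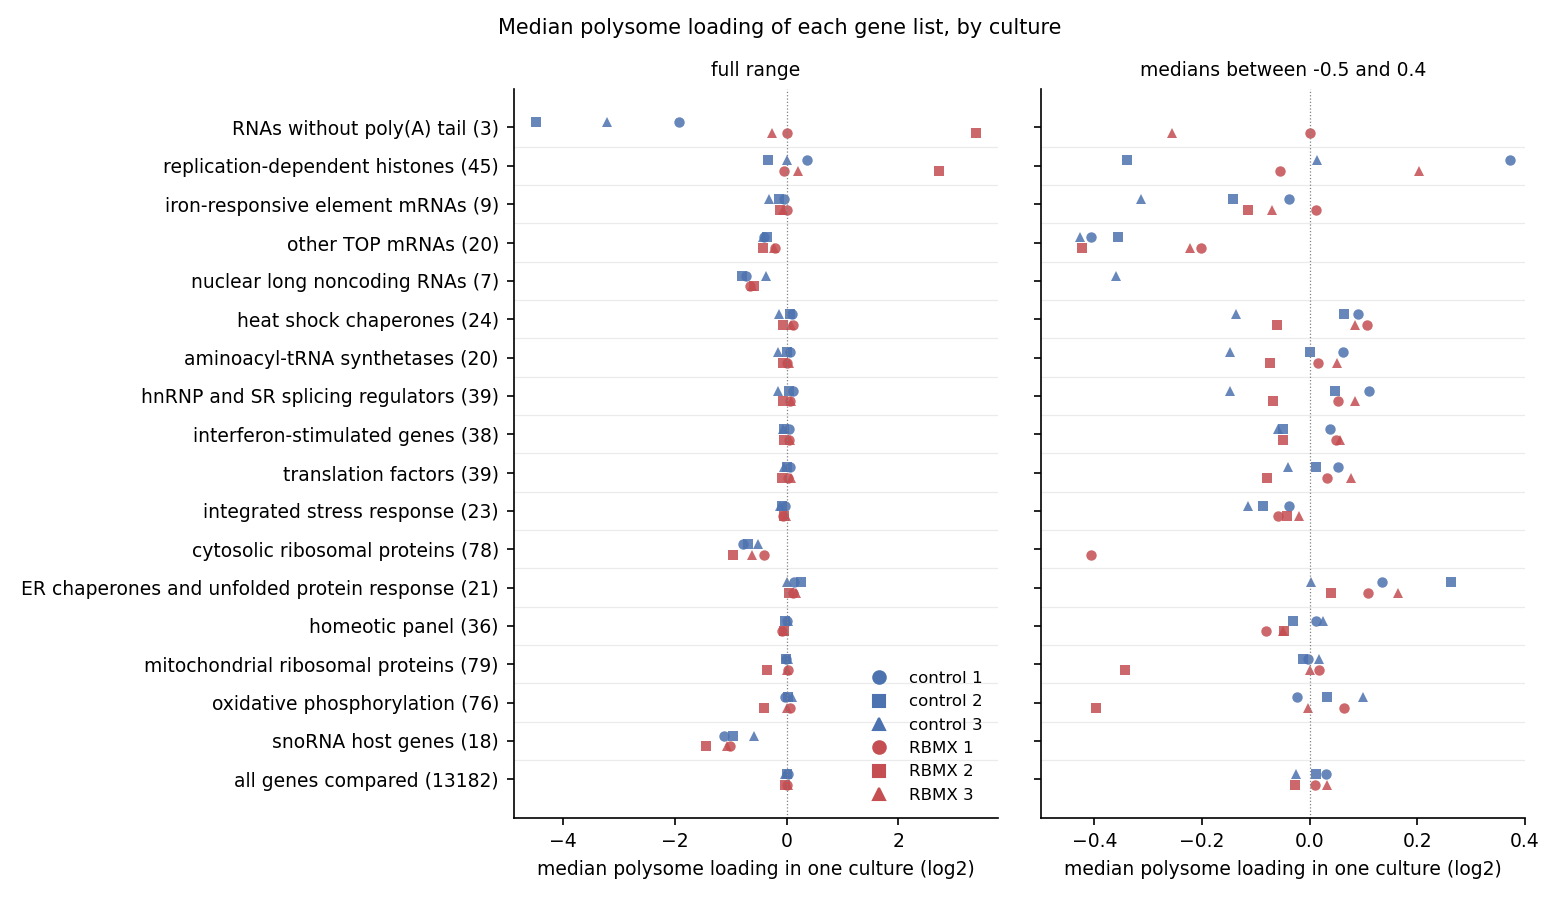
Median polysome loading (log2) of each of the 17 gene lists, with the number of genes compared in brackets, in each control culture (blue) and RBMX culture (red), over the full range on the left and between -0.5 and 0.4 on the right. RBMX culture 2 stands apart in the histones (2.73), the oxidative phosphorylation genes (-0.40) and the mitochondrial ribosomal proteins (-0.34).

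Transcript length moved with the change over all genes when all cultures were used. With genes split into 4 classes of equal size by length, the shortest held 3220 genes, with a length of at most 2138 bases in GENCODE v29. Its median change was -0.076 and 76.3% of its genes were lower, while in the longest class, from 5162 bases, the median was 0.063 and 22.1% were lower. The Spearman correlation of change with length across 12868 genes was 0.492. From the shortest to the longest class the median loading went from -0.041 to 0.11, -0.0061 to 0.039 and 0.018 to -0.034 in control cultures 1 to 3. In RBMX cultures 1 to 3 it went from -0.038 to 0.068, -0.18 to 0.14 and -0.035 to 0.095. RBMX culture 2 thus had the steepest rise, and control culture 3 a fall. The correlation was not computed again without these cultures. Genes that GENCODE does not class as protein coding were less loaded than coding genes in both groups (median -0.16 against 0.009 in control cultures). Their median change was -0.067 over 582 genes, and RBMX cultures lay wholly below control cultures for 61 of them (10.5%), against 3.47% of 12286 coding genes. Their median loading was -0.21, -0.20 and -0.08 in control cultures 1 to 3 and -0.19, -0.26 and -0.22 in RBMX cultures 1 to 3. RBMX culture 1 thus lay above control cultures 1 and 2. This class was not compared again without control culture 3. The part of length in each of these differences was not tested.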

How the data were processed

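The authors deposited 1 table of gene-level FPKM values, which they made, per the submitters' processing notes, with CASAVA 1.8, TopHat2 2.0.13, Cufflinks 2.2.1 and Cuffnorm on hg19. The methods text of the study describes another pipeline, so details of this table are not given in the sources used here. Depth is unknown, since FPKM holds no counts, and no interval from counts was made. Libraries were grouped by the submitters' labels, and 0 pairs of libraries were identical.

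Genes and lists were chosen with earlier results of these data known. Loading was computed per culture with a pseudocount of 1, and the 3 RBMX were compared with the 3 control cultures by limma 3.58.1 in R 4.3.3 (lmFit, eBayes with trend), adjusted by Benjamini-Hochberg over 13182 genes with a threshold of 0.05. A pseudocount understates the change of low genes. The 2 libraries of a culture share a gradient, as the protocol reads, although the labels also mention separate dishes, and their deviations from the group means correlated with 0.022 to 0.748 across genes. Nothing beyond the labels says that cultures were grown on separate days, so p-values measure the spread between these cultures. Differences within each fraction came from limma fits of its 6 libraries. They are given without a test, except where an adjusted p is printed for them.

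The genes named are RBMX, RBMXL1, HOXC10, FYN and HNRNPM, up to 10 genes a direction with the smallest p among those without overlap, the 2 highest and the 2 lowest of each of 17 lists, and 10 textbook cases of translational control. Of the 25268 symbols listed, 13677 reached a mean FPKM of 1, of which 495 with small RNA symbols were left out, 8 of them host genes lost by the MIR prefix. Lists not compared in full, since members were below the level limit or not matched, were the homeotic panel (36 of 44), histones (45 of 73), mitochondrial ribosomal proteins (79 of 81), nuclear long noncoding RNAs (7 of 12), RNAs without poly(A) tail (3 of 8), hnRNP and SR regulators (39 of 41), iron-responsive element mRNAs (9 of 10) and cytosolic ribosomal proteins (78 of 79). GENCODE v29 gave length and GC content, from the longest coding transcript or, for genes with none, the longest of any type, for 12868 genes (97.6%) matched by symbol, and RefSeq gave start sequences. Genes outside this rule were named after their values were seen, and some results covered by it are not reported here. The fits were tested on simulated data. Alternatives changed the pseudocount, the level limit, the scaling, the shrinkage, the pairing and the cultures used. Figures were drawn with Python 3.11.15 and matplotlib 3.10.9.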

Additional observations from a re-analysis of the deposited data

Results flagged for a closer look

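In 3 of the genes named, all control cultures lay on one side of 0 and all RBMX cultures on the other. These were LOC103021295 (change 0.84, from -0.21, -0.08 and -0.84 in control to 0.30, 0.20 and 0.88 in RBMX cultures), IFNL3 (change -0.38) and EPAS1 (change 0.22). The difference was tested for each and none passed the adjusted threshold (limma adjusted p = 1.00). IFNL3 had an FPKM of at most 0.514 in control libraries, so the pseudocount of 1 sets its control loading near 0 and the side on which it lies there is no measured reversal.

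Among data outside the comparison, 5 of 504 small RNA genes passed the adjusted threshold when they were kept in the fit at a mean FPKM of at least 0.5 (limma, Benjamini-Hochberg), and no other gene did. They were MIR1204 (change 12.6), MIR320A (10.8), SNORD28 (-24.0), SNORD52 (13.7) and SNORD27 (-12.2). Their levels in single libraries are not given here, so these very large changes of both signs are not interpreted.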

How the results depend on the processing

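The number of genes past the adjusted threshold was 0 under all settings but 2, namely 5 with small RNA genes kept and 3 with control culture 3 and RBMX culture 2 both left out (NBPF8, GH1 and NBPF9, in a fit of 2 against 2 cultures; a setting chosen after seeing the data, like the correction for length and GC content). With no pairing of the libraries of a culture 40 genes had an unadjusted p under 0.05. Deviations of same-numbered cultures from the means of their vectors correlated across genes with 0.190, -0.125 and -0.218. These 3 values cannot tell whether same-numbered cultures were handled together. With the replicate number as a block 301 genes had an unadjusted p under 0.05 and 0 passed. With no filter on low values there were 875 such genes, 673 wholly higher and 1011 wholly lower. After correction for length and GC content there were 492, with 594 wholly higher. With both cultures left out 1753 were wholly higher and 2115 wholly lower. Leaving out 1 culture gave 168 to 592 genes with an unadjusted p under 0.05, 621 to 1528 wholly higher and 780 to 1511 wholly lower, and the fewer cultures make non-overlap easier to reach. The cause of other shifts was not tested.

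List medians that moved by more than the spread between cultures were the homeotic panel (-0.022 at a minimum FPKM of 5, -0.0049 corrected for length and GC content, 0.018 without both cultures, -0.054 to -0.0094 without 1), the integrated stress response (0.034 with quantile normalisation), interferon-stimulated genes (0.10 with quantile normalisation, 0.083 corrected, 0.082 without both), other TOP mRNAs (0.076 to 0.20 without 1 culture) and, without both cultures, cytosolic ribosomal proteins (0.21), nuclear long noncoding RNAs (0.25) and snoRNA host genes (0.055).

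Some genes turned sign. With quantile normalisation these were FYN (0.030), BTF3 (0.065), IFITM1 (0.28) and ODC1 (0.023), and after correction HOXC10 (0.044), BTF3 (0.10) and TPT1 (-0.0091). Without both cultures they were HOXC10 (0.085), HNRNPM (-0.056), RPS27 (0.47), BTF3 (0.091), NACA (0.060), TFRC (-0.068), OIP5-AS1 (0.25), JPX (0.15), SNHG7 (0.067), SNHG5 (0.20), VTRNA1-1 (-4.32), SEL1L (-0.016), FARSB (0.050) and ODC1 (0.020). Without 1 culture they ranged as follows: FYN (-0.028 to 0.021), TPT1 (-0.13 to 0.19), HOXC10 (-0.071 to 0.051), BTF3 (-0.11 to 0.13), TAF1D (-0.080 to 0.17), FARSB (-0.11 to 0.091), AMD1 (-0.090 to 0.15), TFRC (-0.079 to 0.15), KHDRBS1 (-0.0048 to 0.23), OIP5-AS1 (-0.21 to 0.16), VTRNA1-1 (-4.32 to 5.22), SEL1L (-0.024 to 0.17), HSPB1 (-0.26 to 0.038), FTH1 (-0.0061 to 0.40), HNRNPM (-0.046 to 0.078), RPS27 (-0.98 to 0.049), NACA (-0.20 to 0.062), EIF4E (-0.33 to 0.020) and ODC1 (-0.12 to 0.025).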
